A study of Mus musculus with 4 samples.

Results

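The 33 genes described here make and equip the red blood cell or synthesise heme, and their RNA was measured in mouse liver. All 33 were found by matching the gene name that the array files give, or an older name of the same gene, out of 30085 named genes. They comprise 24 genes used mainly by red-cell precursors, 7 enzymes of the heme pathway that hepatocytes also need, and 2 broadly expressed genes, Tfrc and Car2. Each group was 1 pool of equal amounts of total RNA from the livers of 5 C57BL/6N animals, hybridised to 1 Cy3 array. The groups were wild type (WT, Pnpla7+/+) and knockout (KO, Pnpla7-/-) at 3 weeks and at 6 weeks of age, and all 4 arrays lay on 1 slide. Pnpla7 encodes a lysophospholipase of the liver. The study compared KO with WT livers, and the ages add a second comparison within each genotype.

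With 1 pool per group, a single comparison has no replicate check and no p-value. The differences are therefore described by their size against a threshold of 2-fold. Values are the processed Cy3 intensity divided by the array's own 75th percentile, called signal below, so a signal of 1 lies at that percentile. Signals of different genes come from different probes and were not set against each other. Where the signals of a list are summed below, its brightest probes weigh most, so a sum is no measure of cell number. Ratios were formed for genes that at least 1 of the 2 arrays measured well above its background; where the other array was dim, the fold is a bound and is given as "at least". Between 28714 and 30697 of 43020 spots per array were well above background. Some probes are printed 10 times on each array. From the spread between such spots, the technical SD of a log2 ratio of KO over WT came to 0.0952 (3 weeks) or 0.118 (6 weeks). It was 0.0950 and 0.118 for the ages in WT and KO. Where ratios are set against this spread below, the SD for spots of similar signal was used. For KO over WT at 3 weeks it was 0.197 with both signals under 0.1 and 0.0854 with both over 1. That spread covers the array only, not the differences between animals.

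The targeted gene was read first. Pnpla7 gave a signal of 7.54 in WT and 6.70 in KO at 3 weeks, and of 9.65 in WT and 4.42 in KO at 6 weeks. KO was thus 1.13-fold lower at 3 weeks and 2.18-fold lower at 6 weeks. Its probe lies at chr2:24908961-24909192 (mm9), and the sources used here do not say which part of the gene was deleted, so this probe cannot check the genotype of the pools. KO and WT below are the labels of the pools. The tissue label was checked with 10 hepatocyte markers, all well above background on every array and none past 2-fold in any of the 4 comparisons. Skeletal muscle markers stood apart in KO: 10 of 11 were at least 2-fold higher than in WT at both ages, with medians (log2) of 7.24 in the younger and 5.15 in the older pools. Their part in any result below was not tested.

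Heme is built in a chain of reactions that begins in the mitochondrion with aminolevulinate synthase. Red-cell precursors use the X-linked form, Alas2, to supply hemoglobin, while hepatocytes use the housekeeping form, Alas1, mostly for cytochromes. The fetal liver is the main site of red-cell formation, and this activity leaves the liver for bone marrow and spleen after birth. GATA1, KLF1 and TAL1 are the transcription factors best known for switching on globin, heme and membrane genes in these precursors.

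The stretch before the gene start is shown for genes on both sides of the split described below, because GATA factors bind a core of the letters GATA. The forms searched were AGATAA, the same with a first T, which is TGATAA, and both with a last G, which are AGATAG and, with a first T as well, TGATAG. RefSeq promoters (GRCm38.p6) were matched by symbol for 24 of the 33 genes, and the 250 bases before the start were searched on both strands for these forms and for CACACCC, a letter sequence of the CACC box that KLF1 recognises. The 4 GATA forms exclude one another at a given position. Capitals mark every match. The windows are chr11:32283422-32283671 (+) for Hba-a1, chrX:150547167-150547416 (+) for Alas2, chr6:41704326-41704575 (-) for Kel, chr4:134864286-134864535 (+) for Rhd and chr8:84901732-84901981 (+) for Klf1. The heme enzymes shown for contrast are Alas1 at chr9:106247955-106248204 (-), Urod at chr4:116994414-116994663 (-) and Uros at its first start, chr7:133709296-133709545 (-), and its second start, chr7:133702501-133702750 (-).
Hba-a1: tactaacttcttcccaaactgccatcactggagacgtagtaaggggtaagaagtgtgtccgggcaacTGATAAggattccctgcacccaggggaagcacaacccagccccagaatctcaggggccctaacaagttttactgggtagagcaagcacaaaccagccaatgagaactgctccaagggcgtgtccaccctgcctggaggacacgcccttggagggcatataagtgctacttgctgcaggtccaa
Alas2: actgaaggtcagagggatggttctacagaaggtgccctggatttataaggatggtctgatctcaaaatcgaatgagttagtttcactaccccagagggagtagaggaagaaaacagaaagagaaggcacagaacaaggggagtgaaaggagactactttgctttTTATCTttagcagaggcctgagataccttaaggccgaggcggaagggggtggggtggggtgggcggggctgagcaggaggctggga
Kel: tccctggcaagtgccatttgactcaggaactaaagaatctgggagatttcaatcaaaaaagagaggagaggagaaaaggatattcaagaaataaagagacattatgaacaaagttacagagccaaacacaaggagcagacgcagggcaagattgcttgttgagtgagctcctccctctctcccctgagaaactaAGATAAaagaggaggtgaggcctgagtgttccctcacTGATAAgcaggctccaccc
Rhd: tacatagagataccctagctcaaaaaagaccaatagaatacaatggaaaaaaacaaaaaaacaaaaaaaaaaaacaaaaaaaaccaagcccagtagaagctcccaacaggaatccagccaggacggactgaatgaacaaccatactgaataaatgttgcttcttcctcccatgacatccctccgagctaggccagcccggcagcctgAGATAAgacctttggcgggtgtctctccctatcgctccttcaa
Klf1: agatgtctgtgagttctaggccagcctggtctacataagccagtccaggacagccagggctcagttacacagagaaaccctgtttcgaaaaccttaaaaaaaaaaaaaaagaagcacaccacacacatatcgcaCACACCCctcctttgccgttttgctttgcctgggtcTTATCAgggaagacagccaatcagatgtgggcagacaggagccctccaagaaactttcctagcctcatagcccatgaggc
Alas1: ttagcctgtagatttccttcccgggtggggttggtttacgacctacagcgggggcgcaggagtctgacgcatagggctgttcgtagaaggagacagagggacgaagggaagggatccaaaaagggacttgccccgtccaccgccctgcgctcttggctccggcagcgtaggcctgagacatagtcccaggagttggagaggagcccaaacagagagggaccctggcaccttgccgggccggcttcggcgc
Urod: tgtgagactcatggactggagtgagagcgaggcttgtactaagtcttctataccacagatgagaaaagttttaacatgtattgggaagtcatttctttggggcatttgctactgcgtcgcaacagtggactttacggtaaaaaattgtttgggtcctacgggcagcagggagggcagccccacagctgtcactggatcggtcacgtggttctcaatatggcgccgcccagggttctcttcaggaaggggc
Uros, first start: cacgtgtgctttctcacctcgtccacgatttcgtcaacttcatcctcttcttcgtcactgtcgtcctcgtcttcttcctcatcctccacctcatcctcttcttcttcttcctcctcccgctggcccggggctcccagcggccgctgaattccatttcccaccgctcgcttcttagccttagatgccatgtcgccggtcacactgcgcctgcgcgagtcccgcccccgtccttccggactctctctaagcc
Uros, second start: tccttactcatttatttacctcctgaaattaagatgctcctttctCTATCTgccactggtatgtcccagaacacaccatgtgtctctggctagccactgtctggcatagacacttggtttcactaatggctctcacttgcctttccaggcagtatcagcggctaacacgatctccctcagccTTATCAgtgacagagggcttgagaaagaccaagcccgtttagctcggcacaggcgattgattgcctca

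The GATA letters begin 183 bases before the start in Hba-a1, 86 in Alas2, 43 in Rhd and 80 in Klf1, and Kel carries a pair of matches at 56 and 19 bases. Klf1 also holds CACACCC, at 116 bases. Of 17 red-cell genes with a RefSeq promoter, 15 (88.2%) held at least 1 GATA match, against 29.7% of all 27025 genes with a promoter. Tspo2 and Gata1 were the red-cell genes without one. Of the 6 heme enzymes with a promoter, 2 held a match: Cpox, and Uros at its second start alone, at 205 and 68 bases. CACACCC was in 3 of 17 red-cell promoters, Gata1, Klf1 and Trim10, and in 1 of 6 heme enzyme promoters, Cpox, against 7.90% of all genes. The median share of G and C in these windows was 51.6% for red-cell genes, 58.8% for heme enzymes and 52.4% for all genes. These matches describe letters and are not evidence of binding.

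The clearest pattern in the RNA was between the ages. The globins, Slc4a1 and Alas2 were far lower at 6 than at 3 weeks in the pools of both genotypes, while none of the 7 heme enzymes moved by 2-fold. Of the 15 red-cell genes well above background on all 4 arrays, 5 were at least 2-fold lower at 6 weeks in WT, where 3.23% of all such genes were, and 4 in KO, where 4.49% were. Their median log2 ratios were -0.48 in WT and -0.43 in KO. Genes that became dim at 6 weeks are outside these counts. Counting bounds too, of 21 red-cell genes that entered the WT comparison, 11 were at least 2-fold lower at 6 weeks, where 5.85% of all genes were, and 1 was at least 2-fold higher, where 3.65% of all genes were. In KO, 9 of 22 were lower, against 6.26% of all genes, and 1 was higher, against 6.02%. The median log2 ratio of these red-cell genes was -1.65 in WT and -0.67 in KO, beside 0.01 and 0.06 over all genes. Of these ratios, 6 of 21 in WT and 4 of 22 in KO are bounds. A gene that entered through its 3-week signal alone could only be lower, so the counts with bounds are a description.

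Over both genotypes, 10 of the 30 members that entered both comparisons were at least 2-fold lower at 6 weeks in WT and in KO, where 2.23% of all genes were. They were Hba-a1, Hbb-b1, Ahsp, Alas2, Slc4a1, Rhd, Kel, Gata1, Tfrc and Car2. Measured on all 4 arrays were Hba-a1, Hbb-b1, Alas2, Slc4a1, Tfrc and Car2. With normexp and quantile normalization 7 of the 10 stayed at least 2-fold lower in both genotypes. Gata1, at -0.50 in WT and -0.35 in KO on the log2 scale, did not, nor did Rhd at -0.74 and Kel at -0.63 in KO. None of the 30 was at least 2-fold higher in both, where 1.17% of all genes were. In a bulk sample, fewer cells of a type and less RNA per cell cannot be told apart.

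**Figure D1:**
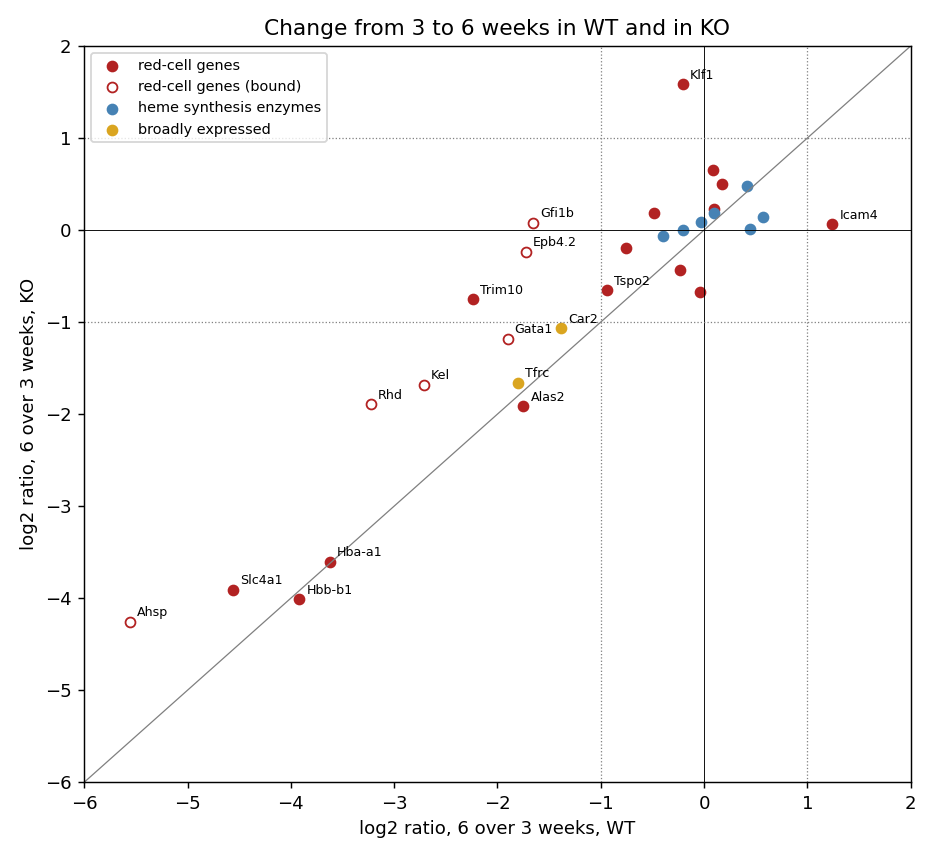
Log2 ratio of 6 over 3 weeks in WT (horizontal axis) and in KO (vertical axis) for the members that entered both comparisons. Open circles are bounds, dotted lines mark 2-fold and the grey diagonal marks equal ratios; the heme synthesis enzymes sit near 0 while the globins, Slc4a1 and Ahsp lie below -3.5 on both axes.

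The globin genes were among the members furthest apart between the ages. Hba-a1, a chain of adult alpha globin, had signals of 94.8 in WT and 83.2 in KO at 3 weeks, and of 7.70 and 6.83 at 6 weeks. That is 12.3-fold lower at 6 weeks in WT and 12.2-fold lower in KO. Both 3-week pools lay far above both 6-week pools, and the genotypes differed little at either age.

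Hbb-b1, an adult beta globin, read 72.3 and 65.4 at 3 weeks and 4.77 and 4.05 at 6 weeks, in WT and KO respectively. It was 15.1-fold lower in WT and 16.2-fold lower in KO. Hba-a1 and Hbb-b1 each have a near-identical copy, so part of their signal may come from that copy. The probes listed for the copies, Hba-a2 and Hbb-b2, moved the same way, with log2 ratios of -3.07 and -3.87 in WT and -3.00 and -4.52 in KO.

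Ahsp encodes the chaperone that holds free alpha globin. Its signal was 0.481 in WT and 0.258 in KO at 3 weeks and was not well above background on either 6-week array. It was at least 47.2-fold lower at 6 weeks in WT and at least 19.1-fold lower in KO; with normexp and quantile normalization the log2 bounds were -2.86 and -2.05.

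Alas2, the erythroid aminolevulinate synthase, differed less between the ages than the globins did. Its signal was 4.57 in WT and 4.40 in KO at 3 weeks, and 1.36 and 1.17 at 6 weeks, which is 3.36-fold and 3.76-fold lower. Tspo2, a cholesterol-binding protein of late erythroblasts, went from 0.331 to 0.172 in WT and from 0.288 to 0.183 in KO, short of 2-fold in both. Slc25a37 (mitoferrin-1), which brings iron into mitochondria, did not follow them. It read 3.18 and 2.54 at 3 weeks and 3.58 in both pools at 6 weeks, and its second probe also had positive log2 ratios, 0.05 in WT and 0.64 in KO.

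Among the membrane and skeleton genes, Slc4a1, the band 3 anion exchanger that anchors the skeleton, was measured on all 4 arrays. Its signal was 0.542 in WT and 0.358 in KO at 3 weeks and 0.0230 and 0.0239 at 6 weeks, a 23.6-fold and a 14.99-fold difference. The blood group genes Rhd and Kel were measured at 3 weeks alone. Rhd read 0.0955 in WT and 0.0504 in KO, and was at least 9.37-fold lower at 6 weeks in WT and at least 3.72-fold lower in KO. Kel, a membrane endopeptidase, read 0.0668 and 0.0434, with bounds of 6.55-fold and 3.20-fold.

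Epb4.2, which encodes protein 4.2 of the band 3 complex, was measured in 3 of the 4 pools. Its signal was 0.0338 in WT and 0.0244 in KO at 3 weeks, was not well above background in WT at 6 weeks and was 0.0207 in KO at 6 weeks. It was at least 3.31-fold lower at 6 weeks in WT and 1.18-fold lower in KO; whether these differ beyond the spread between pools was not tested. Add2, an adducin, and Rhag, the partner of the Rh proteins, were not well above background on any array and gave no ratio.

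Ermap, an erythroid membrane protein, shows how far a value can depend on the probe. The brightest of its 3 probes lies at chr4:118849093-118849152 (mm9, minus strand), the second at chr4:118848540-118848599 and the dimmest at chr4:118859754-118859813. The first 30 bases of each probe are given, in the order brightest, second and dimmest, with no letters singled out.
Ermap brightest: actggggcacagaaccttcacaggaccaaa
Ermap second: aaataaatacgagactgaagttggcaggtc
Ermap dimmest: aagctacatcctgcaaatcagtaatgtgag

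The brightest probe read 0.621 and 0.605 at 3 weeks and 0.663 and 0.711 at 6 weeks, in WT and KO, and so was nearly level on the 4 arrays. The second probe read 0.0210 in WT and 0.0152 in KO at 3 weeks and was not well above background on either 6-week array. The dimmest was not well above background on any array. The 3 probes carry the same accession, and which of them reads the erythroid transcript was not tested. Icam4, an erythroid adhesion molecule, read 0.123 and 0.136 at 3 weeks and 0.289 and 0.142 at 6 weeks, so WT at 6 weeks stood above the other 3 pools.

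The transcription factors split. Gata1 itself read 0.0381 in WT and 0.0307 in KO at 3 weeks and was not well above background at 6 weeks, at least 3.74-fold and 2.27-fold lower. Gfi1b, a repressor in erythroid and megakaryocytic cells, read 0.0321 in WT and 0.0199 in KO at 3 weeks, was not well above background in WT at 6 weeks and read 0.0210 in KO at 6 weeks. Nfe2, which binds globin enhancers, read 0.246 in WT and 0.156 in KO at 3 weeks and 0.146 and 0.136 at 6 weeks, where WT at 3 weeks was the highest pool. Tal1 was within 1.35-fold between the ages in both genotypes, at 0.168 in both 3-week pools, 0.143 in WT and 0.125 in KO.

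Klf1 and Hemgn were not lower at 6 weeks in both genotypes. Klf1, the activator of adult beta globin, read 0.111 in WT and 0.104 in KO at 3 weeks, and 0.0965 in WT and 0.312 in KO at 6 weeks. KO at 6 weeks stood above the other 3 pools, 3.23-fold above WT of the same age. Hemgn, a nuclear protein of blood precursors, read 58.7 and 72.5 at 3 weeks and 41.9 and 82.4 at 6 weeks, with KO above WT at both ages.

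**Figure D2:**
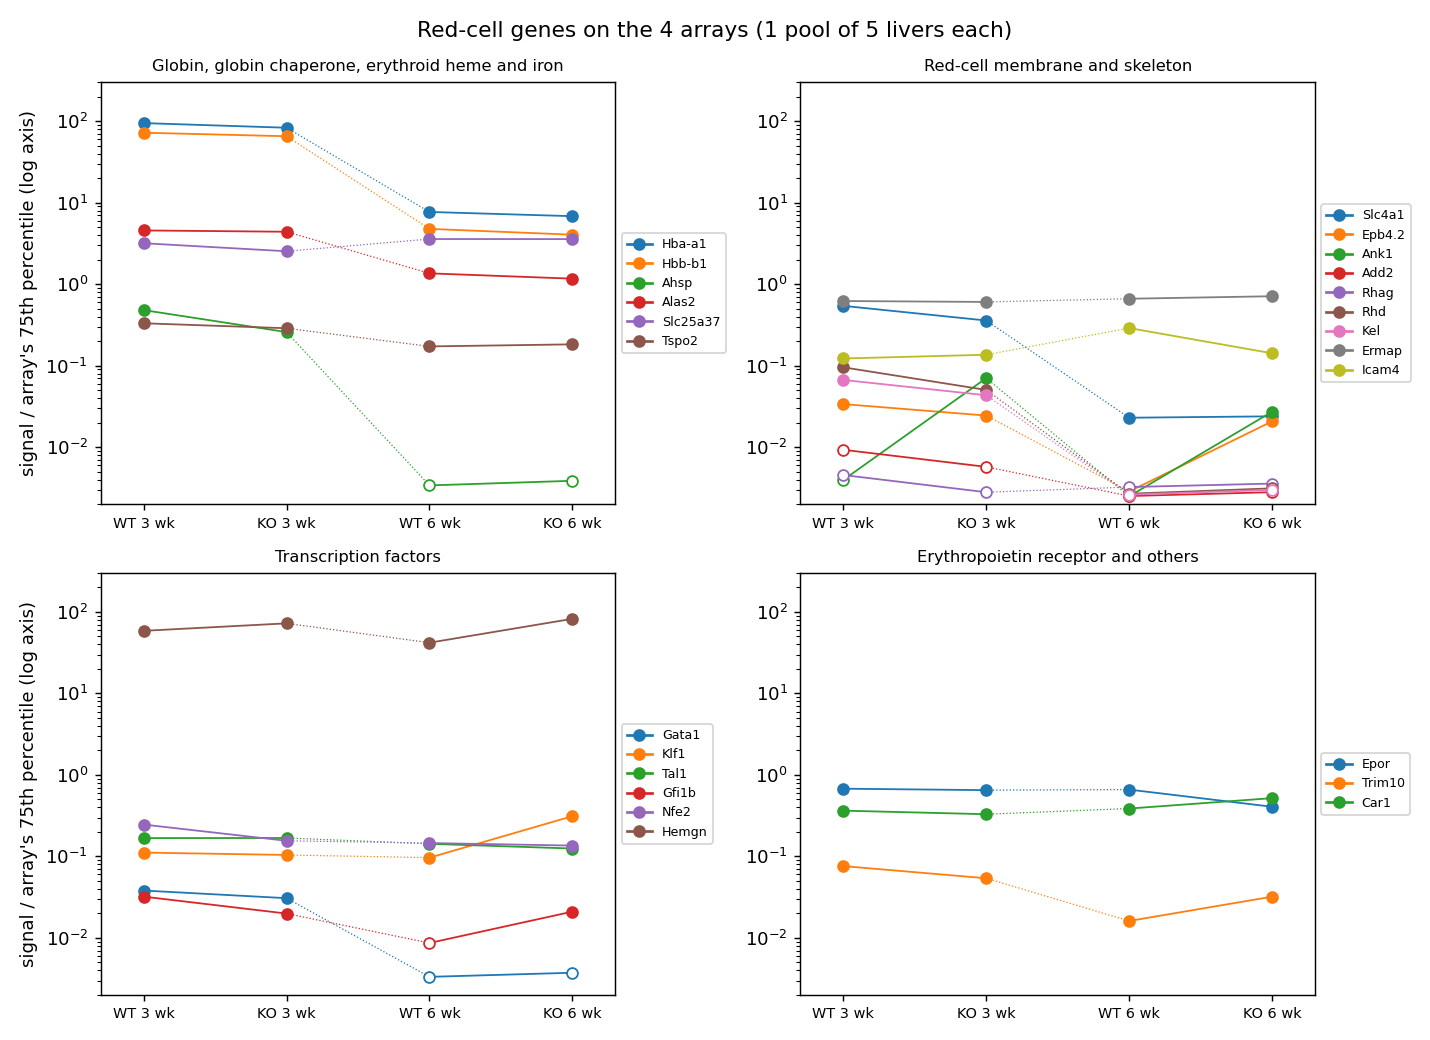
Signal of the 24 red-cell genes on each array (log axis), by role; each point is 1 pool and open circles are not well above background. Globins, Ahsp, Slc4a1, Rhd and Kel lie lower on the 6-week than on the 3-week arrays, whereas Slc25a37, Ermap, Tal1, Epor and Car1 stay within 2-fold of their 3-week values.

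Of the remaining members of the group, Epor, the erythropoietin receptor, read 0.678 and 0.651 at 3 weeks and 0.661 and 0.407 at 6 weeks, so KO at 6 weeks was the lowest pool. Trim10, needed for terminal red-cell differentiation, read 0.0761 and 0.0539 at 3 weeks and 0.0161 and 0.0321 at 6 weeks, 4.71-fold lower at 6 weeks in WT and 1.68-fold lower in KO. Car1, the carbonic anhydrase of red cells, read 0.365 and 0.330 at 3 weeks and 0.387 and 0.519 at 6 weeks. Its second probe had the same direction in KO, with a log2 ratio of 1.12.

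Tfrc and Car2 were lower at 6 weeks like the red-cell genes, although many cell types express them. Tfrc, the receptor that takes up transferrin iron, was printed 10 times on each array and so has a spread between spots of its own. Its signal was 1.65 ± 0.0940 (SD over 10 spots) in WT and 1.59 ± 0.0802 in KO at 3 weeks, and 0.473 ± 0.0494 and 0.507 ± 0.0791 at 6 weeks. The lowest of the 3-week spots was 1.46 and the highest of the 6-week spots 0.719. The 10 spots of an array all read 1 pool, so this gap describes the arrays and not the spread between animals. Many genes differed beyond the spread between spots: in WT, 24.9% of all measured genes were lower at 6 weeks by over 2 SDs and 25.5% were higher. Tfrc was 3.50-fold lower at 6 weeks in WT and 3.16-fold lower in KO. A second Tfrc probe gave log2 ratios of -1.72 and -1.85. Car2, the most active cytosolic carbonic anhydrase, read 3.54 and 2.94 at 3 weeks and 1.36 and 1.40 at 6 weeks, 2.61-fold and 2.10-fold lower.

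The 7 heme enzymes were steady by comparison. None was past 2-fold in any of the 4 comparisons, and their median log2 ratio between the ages was 0.10 in WT and 0.09 in KO; the latter was -0.04 under quantile normalization. Alas1, the rate-limiting enzyme of hepatic heme synthesis, read 145 in WT and 157 in KO at 3 weeks and 110 and 150 at 6 weeks. WT at 6 weeks was the lowest pool. Alad, the second enzyme of the chain, read 10.5 and 9.84 at 3 weeks and 14.0 and 13.7 at 6 weeks, higher at 6 weeks in both genotypes.

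Uros, which closes the ring, read 2.69 and 2.88 at 3 weeks and 3.998 and 3.17 at 6 weeks. Urod, which trims its side chains, read 27.1 and 24.5 and then 26.5 and 26.0. Cpox read 8.10 and 7.32 and then 7.01 and 7.34, and these decarboxylase and oxidase steps held within 1.16-fold between the ages. Ppox, the penultimate enzyme, read 1.64 and 1.47 at 3 weeks and 2.22 and 1.48 at 6 weeks, with WT at 6 weeks the highest pool. Fech, which inserts the iron, read 20.6 and 20.5 and then 22.0 and 23.2. The signs of Urod, Cpox and Fech between the ages in KO turn under quantile normalization, as their ratios lie close to 0.

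**Figure D3:**
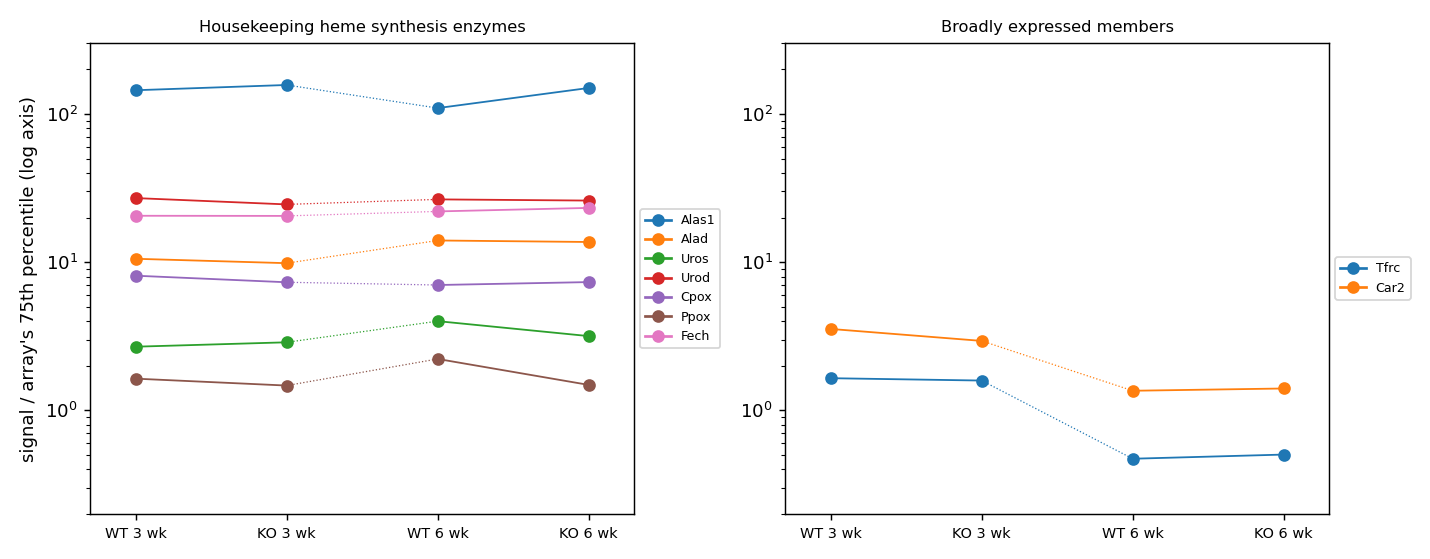
Signal of the 7 housekeeping heme synthesis enzymes (left) and of Tfrc and Car2 (right) on the 4 arrays, log axis; each point is 1 pool. The enzymes stay within 2-fold across all 4 pools, while Tfrc and Car2 lie lower on the 6-week than on the 3-week arrays.

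Alas2 and Alas1 catalyse the same reaction and differed in the size of their change. Between the ages Alas2 had log2 ratios of -1.75 in WT and -1.91 in KO, and Alas1 of -0.40 and -0.07. Alas1 has 2 probes on the array, and they differ in the size of the genotype difference.

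On the dimmer of them Alas1 read 4.42 in WT and 5.37 in KO at 3 weeks and 2.55 and 5.96 at 6 weeks, age ratios of -0.79 in WT and 0.15 in KO (log2). KO over WT at 6 weeks came to 0.45 (log2) on the brighter probe and 1.22 on the dimmer, the same direction but on different sides of 2-fold. At 3 weeks it came to 0.12 and 0.28. Of 8 genes listed as regulators of Alas1, 2 were at least 2-fold higher in KO at 6 weeks, against 6.49% of all genes: Ppargc1a, the coactivator that induces Alas1 in fasting, at 1.25 on the log2 scale, and Nr1i3, the constitutive androstane receptor, at 1.04. The 3-week values were 0.98 and -0.21, so neither was past 2-fold.

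Fewer red-cell genes were past 2-fold between KO and WT than between the ages. At 3 weeks, 1 of the 22 red-cell genes that entered was at least 2-fold higher in KO, against 2.86% of all genes. It was Ank1, which was dim in WT and entered through KO alone, so it could only be higher. At least 2-fold lower were 0 of the 22, against 2.90% of all genes. The median log2 ratio was -0.20, with 18 of 22 below 0, beside a median of 0.00 and 50.9% of all genes below 0. Under median scaling and both quantile normalizations 19 of 22 were below 0. Against the spread between spots, 11 of the 21 ratios measured on both arrays were lower in KO by over 2 SDs, where 14.6% of all genes were, and 1, Hemgn, was higher, where 12.5% were.

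The larger differences at 3 weeks included genes that were lower at 6 weeks. Ahsp was 1.86-fold lower in KO than in WT, Rhd 1.90-fold lower, Kel 1.54-fold lower and Slc4a1 1.51-fold lower. Gfi1b and Nfe2 were 1.62-fold and 1.58-fold lower. The globins were closer to WT, at 1.14-fold lower for Hba-a1 and 1.105-fold lower for Hbb-b1, and Alas2 was 1.04-fold lower. All of these are single pools, and whether they differ beyond the spread between pools was not tested. Other marker lists at 3 weeks did not all run one way. All 9 neutrophil precursor genes with a ratio were below 0, with a median of -0.43 and 1 past 2-fold, and 11 of 12 cell cycle genes were below 0, with a median of -0.45 and 0 past 2-fold. B cell precursor genes had 6 of 6 below 0, with a median of -0.40, and macrophage genes 7 of 9, with a median of -0.08. Megakaryocyte genes had 8 of 10 above 0 with a median of 0.27, and 1, Gp1ba, was at least 2-fold higher, against 2.86% of all genes. Progenitor genes had 4 of 7 above 0, and 1, Flt3, was at least 2-fold lower, against 2.90%. Mast cell genes had 3 of 4 above 0, with 2 of the 4 being bounds. The neutrophil precursor genes had a summed signal of 7.88 in WT and 5.81 in KO, and the cell cycle genes 37.3 and 28.5. The part of these cells in the result was not tested.

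At 6 weeks the median log2 ratio of the red-cell genes was 0.07, beside 0.05 over all genes, and 8 of 18 were below 0. Of these 18, 4 were at least 2-fold higher in KO, against 6.49% of all genes, and 1 was lower, against 4.54%. The higher genes were Klf1, and Ank1, Epb4.2 and Gfi1b with bounds of 2.67-fold, 2.03-fold and 2.06-fold; the bounds of the last pair fall short of 2-fold under quantile normalization, and all 3 do with normexp as well. Icam4 was the lower one, at 2.04-fold, and at -0.83 on the log2 scale with normexp it too fell short. Ank1, Epb4.2 and Gfi1b were dim in WT and entered through KO alone, so they could only be higher. Of the 15 red-cell genes well above background on all 4 arrays, 1 was at least 2-fold higher in KO and 1 lower. The share of all such genes was not counted. Trim10 and Hemgn were just short of the threshold at 1.99-fold and 1.96-fold higher, and Epor was 1.62-fold lower.

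For the heme enzymes, KO over WT had a median (log2) of -0.10 in the younger and -0.03 in the older pools. At 6 weeks Ppox was 1.497-fold lower and Uros 1.26-fold lower in KO, both beyond 2 SDs of the spread between spots, where 21% of all genes were lower by that much. Alas1 was 1.37-fold higher, also beyond 2 SDs, where 27.7% of all genes were.

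**Figure D4:**
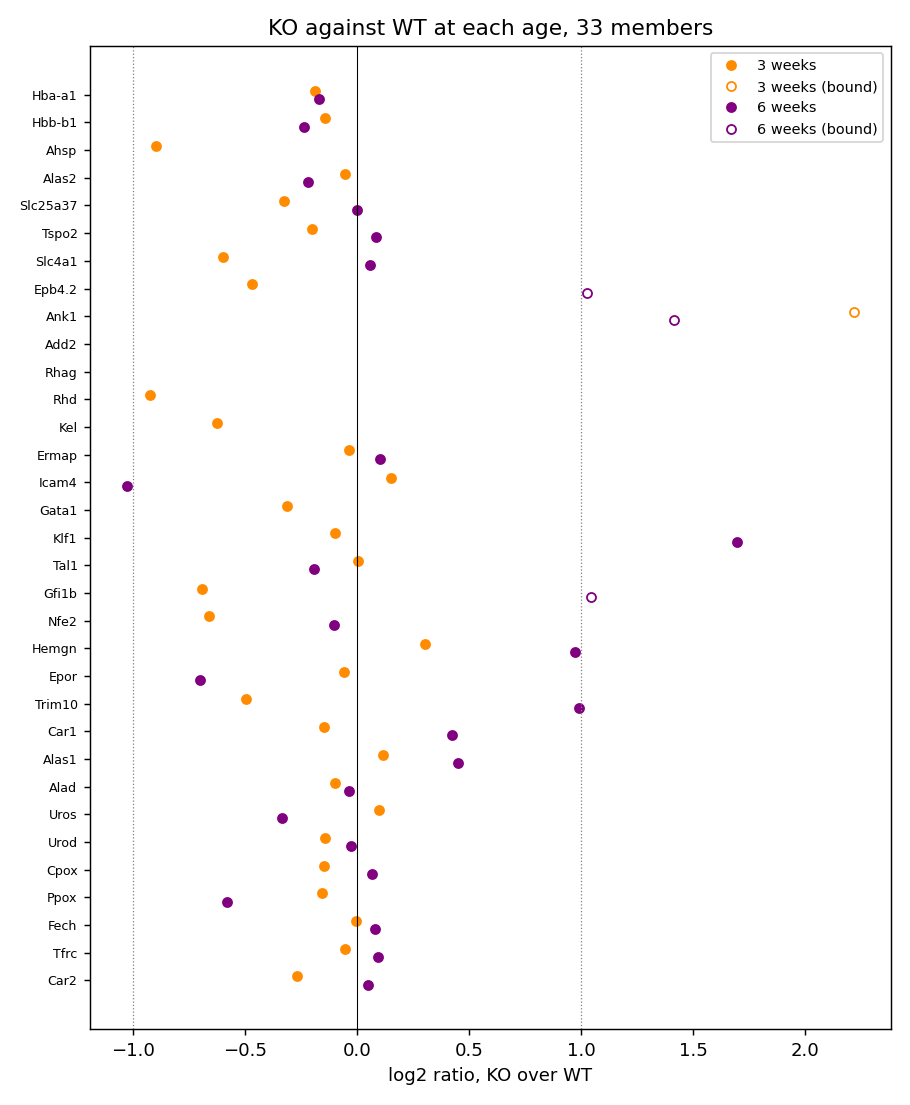
Log2 ratio of KO over WT at 3 weeks (orange) and at 6 weeks (purple) for the 33 genes; open circles are bounds, dotted lines mark 2-fold, and a gene without a point was not well above background in either pool. Most red-cell genes lie to the left of 0 at 3 weeks, and Ank1 is the gene past 2-fold at both ages.

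Ank1 was the member at least 2-fold higher in KO at both ages. It was 1 of 27 members that entered both comparisons, where 0.975% of all genes were higher at both. Of the 27, 0 were lower at both, where 0.346% of all genes were. Ank1 was dim in WT at both ages and entered through KO alone, so it could only be higher and its count is a description. Ank1 encodes ankyrin, which ties band 3 to the spectrin skeleton, and skeletal muscle makes a short form of it. It was not well above background in WT at either age and read 0.0703 in KO at 3 weeks and 0.0272 in KO at 6 weeks. That gives at least 4.65-fold at 3 weeks and at least 2.67-fold at 6 weeks; with normexp and quantile normalization the log2 bounds were 1.04 and 0.45. Of the 11 skeletal muscle markers, 10 were also at least 2-fold higher in KO at both ages. From 3 to 6 weeks in KO, Ank1 was 2.58-fold lower. Of the 11 markers, 3 were at least 2-fold lower there, against 6.26% of all genes, with a median log2 ratio of -0.49. Acta1, skeletal actin, read 0.0237 in WT and 10.9 in KO at 3 weeks and 0.326 and 10.3 at 6 weeks. The summed signal of these 10 markers was 0.344 in WT and 56.5 in KO at 3 weeks and 0.960 and 36.1 at 6 weeks. Car3, which hepatocytes also make, was the exception, at 49.1 in WT and 38.99 in KO at 3 weeks; with it the sums were 49.4 and 95.5, then 66.7 and 85.2. Tnnt3, Myh4, Mylpf, Ckm and Mb were not well above background in WT at 3 weeks, nor Myh4, Mylpf and Ckm in WT at 6 weeks. The part of muscle RNA in the Ank1 result was not tested.

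A fit across all genes used the 4 arrays together, with age and genotype as terms in limma, and left 1 residual degree of freedom. After Benjamini-Hochberg adjustment over 22677 genes, 0 genes were called for age or genotype, the smallest adjusted p being 0.378 and 0.369, and 0 members were called under any of the 10 alternatives run. At an unadjusted p under 0.05, limma had 12 of the 31 members tested for age, all lower at 6 weeks. Of all genes, 11% were past it in either direction and 6.25% were past it and lower. Ahsp, Rhd, Kel and Gata1 are among the 12 and entered through their 3-week signals alone, so they could only be lower. Ank1, also among them, was dim in WT at both ages. With genes well above background on all 4 arrays, limma had 9 of 24 members past it for age. Of these, 8 were lower, where 7.42% of all such genes were. For genotype, limma in the main fit had 1 member, Ank1, where 4.22% of all genes were. Ank1 entered through its KO signals alone, so it could only be higher in KO. The age estimates were -3.97 ± 0.155 (log2, SE, limma adjusted p = 0.378) for Hbb-b1, -3.61 ± 0.153 for Hba-a1 and -4.23 ± 0.245 for Slc4a1. Alas2 was at -1.83 ± 0.160 and Tfrc at -1.73 ± 0.159, with the same adjusted p in limma. The spread in this fit comes from how the pools of the 2 genotypes differ in their change with age, and not from separate animals.

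Some erythroid genes outside the 33 were also lower at 6 weeks. Of 26 listed, 6 of 21 that entered were at least 2-fold lower in WT, against 5.85% of all genes, and 4 of 23 in KO, against 6.26%, and 0 were higher, with median log2 ratios of -0.30 and -0.24. Tfr2, Steap3 and Slc25a38, which act in iron and heme supply, stayed within 1.5-fold. Other marker lists were also lower at 6 weeks, beside the red-cell genes and the same shares of all genes: neutrophil precursor genes had 7 of 9 lower in WT and 7 of 10 in KO, with medians of -2.66 and -1.51, and cell cycle genes had 11 of 12 and 10 of 12, with medians of -1.83 and -3.19. The summed signal of the neutrophil precursor genes went from 7.88 to 2.77 in WT and from 5.81 to 2.79 in KO. Megakaryocyte genes had 4 of 9 lower in WT and 5 of 10 in KO, with medians of -0.45 and -1.08. Of these ratios, 2 in WT and 4 in KO were bounds. Macrophage genes had 2 of 9 and 4 of 9 lower, with medians of -0.05 and -0.84, and progenitor genes 2 of 7 and 0 of 7. Mast cell and B cell precursor genes had 0 lower in either genotype. Hepatocyte markers had medians of -0.01 and 0.11. The part of these cells in the age difference was not tested. The comparisons between genotypes and between ages share arrays, so a single high or low pool enters more than 1 of them.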

How the data were processed

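Liver RNA of 4 pools was measured on 4 Cy3 Agilent arrays. The submitters' processing notes name Agilent Feature Extraction 11.5.1.1 as the source of the deposited intensity, which is background-subtracted, per the file headers. The deposited outlier and well-above-background flags are other values of 0 or 1. In the table of values that the authors deposited, each entry is the ratio of that intensity to its array's 75th percentile. All 43020 spots of every array gave this quotient to 3 decimals, so scale, centring and direction are known. Column medians over non-control spots were 0.0878 (WT) and 0.0896 (KO) at 3 weeks, 0.0853 (WT) and 0.0864 (KO) at 6 weeks. The files place probes on mm9.

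The log2 of intensity over the 75th percentile of non-control spots was used. Between 189 and 252 outlier spots per array were left out, spots of a probe averaged, and the brightest probe of a gene name taken. A dim array's value was set to the higher of its own signal and the lowest signal well above background on that array. The limma 3.58.1 fit in R 4.3.3 used 22677 genes and was tested on simulated data. Other steps used Python 3.11.15, numpy 2.4.6 and pandas 2.3.3. Every member is named in the text; from other lists, genes were named by their ratio or where a result turned on them; some are not reported here. The members and lists were chosen with earlier results of these data known. The spot spread was compared after the values had been seen. Alternatives changed the scaling, background correction, dim-probe filter, probe rule, outlier spots, source of values, fold threshold, limma prior and covariate. The number of arrays limits the precision.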

Additional observations from a re-analysis of the deposited data

Results flagged for a closer look

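Gfi1b changed sign between the ages. Its log2 ratio of KO over WT was -0.69 at 3 weeks and at least 1.04 at 6 weeks, where WT was not well above background. Gfi1b entered at 6 weeks through KO alone, so that bound could only be positive. Each value rests on 1 pool per group, and the difference between the ages was not tested.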

How the results depend on the processing

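Medians and counts of the member lists and calls in limma stayed close to the stated value in 219 cases and moved further in 25. Many of the 219 could hardly move. The heme enzyme counts and the calls in limma were 0 in every setting, and the authors' values are the same ratio as the main ones. The lower threshold of 1.5-fold gave 6 red-cell genes lower in KO at 3 weeks in place of 0, 2 lower at 6 weeks in place of 1, and 2 higher with age in KO. At 3-fold, 1 was higher and 0 lower in KO at 6 weeks, and 0 were higher with age in WT or KO. Quantile normalization left 2 higher in KO at 6 weeks, a WT age median of -1.53 and a heme enzyme age median in KO of -0.043. With normexp as well, 1 was higher and 0 lower in KO at 6 weeks, 0 higher and 7 lower with age in WT, and 5 lower in KO; the medians were -0.53 in WT, -0.32 in KO and -0.036 for heme enzymes in KO. Requiring all 4 arrays above background removes by construction the genes that became dim: it left 0 higher in KO at 3 weeks, 1 higher at 6 weeks, 5 lower with age in WT (median -0.48) and 4 in KO (median -0.43). With no filter the WT age median was -1.35. With the mean of all probes, Epb4.2 in KO over WT at 6 weeks came to -0.28. Its second probe was dim on every array and lowered the KO mean below the value set for the dim WT array. This -0.28 is therefore no ratio and not a measured change of direction. Of the other member values, 191 moved little and 49 moved more. No paired analysis was possible because each group has 1 array and the labels carry no replicate numbers. Leaving out a replicate was not possible either. At 6 weeks dim signals limit 6 of 9 membrane genes in WT and 4 of 9 in KO, and Gata1 in both.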

Other observations

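The hepcidin genes were higher at 6 than at 3 weeks in both genotypes. Hamp, which encodes hepcidin, the hormone that blocks iron export, read 10.2 in WT and 7.69 in KO at 3 weeks and 53.8 and 52.5 at 6 weeks, log2 ratios of 2.40 and 2.77. Hamp2, its near-identical copy, read 33.04 in WT and 10.98 in KO at 3 weeks and 126 and 143 at 6 weeks, and was the iron gene furthest apart between the genotypes at 3 weeks, at -1.59. The signals of the copies cannot be told apart here. Ferritin and transferrin were level: Fth1, Ftl1 and Trf lay within 0.34 of 0 on the log2 scale in all 4 comparisons.

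Heme breakdown and transport genes had 0 of 19 past 2-fold in any of the 4 comparisons, with medians of -0.12 and -0.01 for KO over WT at 3 and 6 weeks and 0.01 and 0.26 for the ages in WT and KO. Hmox1, which opens the heme ring, read 3.29 and 3.15 at 3 weeks and 1.99 and 1.68 at 6 weeks.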
